A study of Mus musculus with 20 samples.

Results

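The effect of 4 weeks of 16α-LE2, an agonist of estrogen receptor α per the labels, on the mouse heart ventricle was measured by comparing 5 samples of treated mice (titled alpha) with 5 samples of placebo-treated mice (titled OVX). These 10 of the 20 samples in the series were chosen by their titles alone. All were ventricle RNA of female C57BL/6 mice whose ovaries, the chief source of estrogen in blood, had been removed when they were 8 weeks old, and all carried an implanted Alzet minipump. The pump held cyclodextrinated 16 alpha LE2 or placebo solution, and its doses are not known here. The other 10 samples, 5 given 17 beta estradiol (the natural hormone, which activates estrogen receptors α and β) and 5 titled beta whose treatment label says control solution, entered the shared fit and a short comparison at the end. Nothing in the labels says that the samples of a group came from separate animals, so the p-values measure the spread between samples, which may be partly technical.

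Expression was read on an Affymetrix mouse array from 100 ng of total RNA per sample, and each value is a log2 level, on which a step of 1 is 2-fold. Of 18193 genes with an unambiguous probe set, 12082 lay above a filter on the mean level (6.93) and were tested with limma, while 6111 lay below it. Genes with a p under 0.05 after Benjamini-Hochberg adjustment across these 12082 are referred to as called. Rank correlations among the 10 arrays were 0.978 to 0.992. Of the other arrays in the shared fit, estradiol replicate 33 stood apart, with correlations of only 0.922 to 0.941 with the rest. The 95% interval of a gene's difference reached 0.21 log2 units to either side in the median gene, a precision limited by the number of arrays.

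Estrogen receptor α is a nuclear receptor that, once estrogen is bound, acts at gene regulatory regions directly or through other transcription factors. It is present in cardiomyocytes, fibroblasts and endothelial cells of the heart. The cardiac extracellular matrix is made mostly by fibroblasts: fibrillar collagens give it tensile strength, small secreted proteins such as SPARC help collagen to be processed and laid down, and proteases remodel it. The title of the series names glucose uptake as the theme of the study, so transporters and enzymes of glucose use are given alongside. The array's own reading of the receptors was low. Esr1, which encodes receptor α, had a level of 6.77 ± 0.09 (SD, n = 5) with 16α-LE2 and 6.94 ± 0.11 with placebo, and Esr2, which encodes receptor β, had 6.56 ± 0.06 and 6.53 ± 0.06. Both had means over all 20 arrays below the filter and were not tested.

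The start regions of 4 of the 5 genes of smallest p are shown, to give the start of both falling and rising genes at the head of the results: Sparc, Col3a1 and Fstl1, which fell, and Myh7, which rose. Each line gives the 250 bases before the transcription start, 5′ to 3′ along the gene's own strand, from RefSeq (GRCm38.p6), with capitals on any of 5 short motifs searched on both strands: the TATA box (TATAAA), the CCAAT box (its name is the motif), the GC box (spelled GGGCGG), the nuclear receptor monomer site (spelled AGGTCA) and the palindromic estrogen response element, which can overlap the monomer site. The windows are Sparc at chr11:55420081-55420330 on the minus strand, Col3a1 at chr1:45311288-45311537 on the plus strand, Fstl1 at chr16:37776805-37777054 on the plus strand and Myh7, for the first of its 2 listed starts, at chr14:54994627-54994876 on the minus strand.
Sparc: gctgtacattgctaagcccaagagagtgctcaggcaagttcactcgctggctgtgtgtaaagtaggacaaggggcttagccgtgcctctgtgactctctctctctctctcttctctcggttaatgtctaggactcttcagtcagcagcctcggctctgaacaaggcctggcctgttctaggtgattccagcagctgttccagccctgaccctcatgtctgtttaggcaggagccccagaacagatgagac
Col3a1: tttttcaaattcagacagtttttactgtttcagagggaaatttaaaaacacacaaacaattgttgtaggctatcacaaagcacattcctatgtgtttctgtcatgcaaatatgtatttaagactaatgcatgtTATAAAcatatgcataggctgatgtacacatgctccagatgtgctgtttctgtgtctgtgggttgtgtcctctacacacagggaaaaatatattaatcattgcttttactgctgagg
Fstl1: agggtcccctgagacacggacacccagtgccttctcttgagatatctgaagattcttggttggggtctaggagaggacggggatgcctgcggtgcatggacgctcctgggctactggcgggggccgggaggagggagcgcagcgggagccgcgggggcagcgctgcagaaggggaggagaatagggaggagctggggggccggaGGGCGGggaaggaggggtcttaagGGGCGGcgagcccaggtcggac
Myh7: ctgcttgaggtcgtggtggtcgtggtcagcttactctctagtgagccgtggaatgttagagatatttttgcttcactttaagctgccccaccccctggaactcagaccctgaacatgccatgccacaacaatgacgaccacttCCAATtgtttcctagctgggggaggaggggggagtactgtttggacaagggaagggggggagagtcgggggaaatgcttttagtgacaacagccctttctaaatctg

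The Col3a1 window held the TATA box from 117 to 112 bases before the start, the Fstl1 window held the GC box from 46 to 41 and from 22 to 17 bases before it, and the Myh7 window held the CCAAT box from 107 to 103 bases before it. None of the 5 motifs was found in the Sparc window. The table held windows for 15 of the 27 genes called between 16α-LE2 and placebo. Of these 15 genes, 3 held the TATA box, 6 the CCAAT box, 8 the GC box and 1 the monomer site (P2ry14), and 0 held the palindromic element. Among all 32851 windows of the same length the shares were 12.4% for the TATA box, 33.9% for the CCAAT box, 32.7% for the GC box, 14.02% for the monomer site and 0.0639% for the palindromic element. A gene was counted if any of its listed windows held the motif, while these shares are over single windows, so the units differ. A match is a description of the letters in the window and says nothing about binding.

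Over all genes, 27 were called, 0.223% of those tested, and falls outnumbered rises: 24 were lower with 16α-LE2 (0.199%) and 3 higher (0.0248%). Among the 24 were Sparc, the collagens Col3a1, Col5a2, Col8a1 and Col14a1, the matrix enzyme Mmp2 and the apelin receptor Aplnr. The 3 that rose were Myh7, Spon1 and Slc4a1. Called genes differed by 1.33-fold to 2.997-fold, with a median of 1.55-fold, and 4 passed 2-fold: Col3a1, Nrep and Aplnr, which fell, and Myh7. In 24 of the 27 the 5 treated and the 5 placebo samples did not overlap, and the exceptions were Aplnr, Marcks and Nid1. Over all tested genes, 326 (2.7%) had every treated sample below every placebo sample and 70 (0.579%) had every treated sample above. An unadjusted p under 0.05 was reached by 1088 genes (9.01%), 146 higher and 942 lower. Most genes moved little: 11166 lay within 0.25 log2 units of 0, and 7 differed by over 1.

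**Figure D1:**
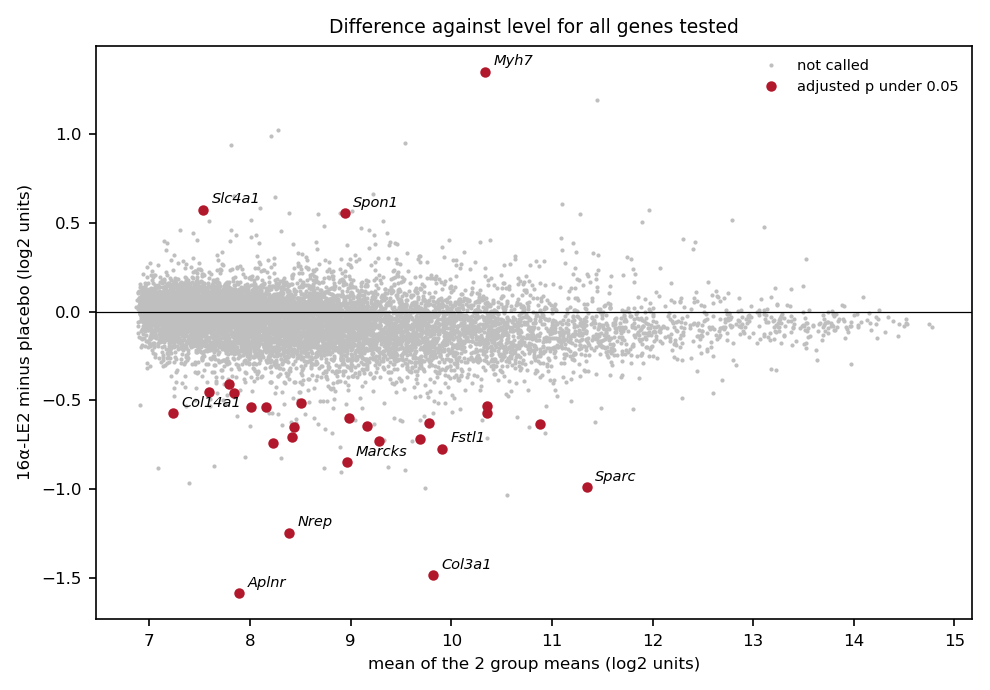
Each point is 1 of the 12082 tested genes, with the mean of the placebo and 16α-LE2 group means on the horizontal axis and the 16α-LE2 minus placebo difference on the vertical axis, both in log2 units; the 27 called genes are red. Called falls outnumber called rises, 24 to 3, and the cloud of uncalled genes lies below 0 at high levels and around 0 at low levels.

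The balance of small falls over rises depended on the level of a gene. The median difference over all tested genes was −0.03, and 59.7% of them were lower with 16α-LE2. When genes were split by level into 4 bins of about equal size, the median difference went from 0.02 in the lowest bin to −0.01, −0.06 and −0.10 in the highest, and the share of genes that were lower went from 38.4% to 53.6%, 67.6% and 79.3%. The spread of values on an array was also narrower with 16α-LE2, with an SD of 1.38 to 1.41 log2 units against 1.41 to 1.48 with placebo. After quantile normalization, which makes these spreads equal, 23 genes were called, 7 higher and 16 lower, so that 30.4% of calls were rises, and 18 of these 23 were among the original 27. The 9 calls lost were Col5a2, Col8a1, Mmp2, Nid1, Colec11, Marcks, P2ry14, Tnfaip2 and Tspan13. The part of the array spread in the excess of falls was not tested beyond this.

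The number of calls rested on single arrays and on the arrays that shared the fit. With only the 10 arrays compared, 37 genes were called, of which 16 were among the 27, and Col8a1, Itih5, Ppic, Nid1, Itga6, Colec11, Enpep, Kdelr3, Marcks, Slc4a1 and Tnfaip2 lost their calls. The number was 8 without placebo replicate 31, 15 without placebo replicate 33, 9, 11 and 14 without 16α-LE2 replicates 33, 30 and 34, and 74 without estradiol replicate 33, which is in neither group and acts through the shared estimate of spread. Sparc, Col3a1, Nrep and Myh7 were called under all 33 alternative settings, and Fam43a under all 32 in which it was tested. Fstl1 and Smoc2 lost their calls with the replicate number as a block (limma adjusted p = 0.0552 and 0.0709). They and Adamts9 were called in all 20 fits that left out 1 array. Without placebo replicate 31 these 8 alone were called. Without 16α-LE2 replicate 33 Itga6 joined them, and without replicate 30 Itih5, Col14a1 and Slc4a1 did. Without replicate 34 Itih5, Col5a2, Mmp2, Spon1 and Nid1 were also called, and without placebo replicate 33 Itih5, Aplnr, Colec11, Fabp5, P2ry14 and Tspan13, with 1 gene outside the 27 in each of these fits. Without placebo replicate 32 Mmp2, Ppic, Colec11, Fabp5, Slc4a1, Col8a1, Marcks, P2ry14, Tspan13 and Nid1 lost their calls. The 24 genes that fell did not spread evenly over the samples: placebo replicate 33 was the highest placebo sample in 14 of the 24, and placebo replicate 36 the lowest in 11 and replicate 34 in 7. Among treated samples, replicate 29 was the highest in 9 of the 24, and replicates 30 and 34 the lowest in 7 each.

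Matrix genes made up 13 of the 27 called genes. In 7 lists of matrix genes (collagens of both kinds, basement membrane, matricellular proteins, small leucine-rich proteoglycans, collagen-processing enzymes, and proteases with their inhibitors), 102 genes were tested. Of these, 12 were called lower and 1 higher, which is 12.7% of the 102 against 0.223% of all genes. By sign alone, 78 were negative and 24 positive. Their median difference was −0.12, against −0.03 over all genes and −0.10 in the highest of the 4 bins by level. Of the 13 calls, 9 held after quantile normalization, 9 in the fit of only the 10 arrays compared, 8 when probe sets were averaged within genes, 6 without placebo replicate 33, and 5 without placebo replicate 31 or 16α-LE2 replicate 33. With the replicate number as a block, 6 held. The lists were chosen with earlier results of these data known, so these shares are a description. Counts in each list below stand beside the same shares over all genes. These were 0.223% called, 9.01% with an unadjusted p under 0.05 and 59.7% lower with 16α-LE2. In the highest of the 4 bins by level, 79.3% of genes were lower, and the lists were not matched for level. In the paragraphs on single genes, values are given for 16α-LE2 replicates 29, 30, 32, 33 and 34, and placebo replicates 31, 32, 33, 34 and 36, in that order.

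Sparc, the secreted collagen-binding glycoprotein that gives its family its name, had the smallest p of all 12082 genes. Its level with 16α-LE2 was 11.12, 10.66, 10.93, 10.75 and 10.81, and with placebo 11.86, 11.81, 12.08, 11.74 and 11.74. Every treated sample lay below every placebo sample, the nearest being treated replicate 29 and placebo replicates 34 and 36. The fall was 0.99 ± 0.11 log2 units (SE; limma adjusted p = 0.000102), or 1.99-fold. Its other probe sets differed by −1.02 and 0.04.

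Fstl1 and Smoc2, which carry SPARC-like domains, fell as well. Fstl1, follistatin-like 1, a secreted glycoprotein made by cardiac stromal cells, was at 9.30, 9.43, 9.69, 9.53 and 9.67 with 16α-LE2 and at 10.57, 10.28, 10.69, 9.89 and 10.05 with placebo. The groups did not overlap, and placebo replicates 34 and 36 came nearest to the treated samples. The fall was 1.71-fold (limma adjusted p = 0.00733). Smoc2, a secreted calcium-binding matrix protein, was at 8.88, 9.02, 8.96, 8.83 and 8.92 against 9.70, 9.38, 10.13, 9.50 and 9.55. The treated samples lay close together, the placebo samples were more spread, with replicate 33 highest, and the groups did not overlap. Smoc2 was 1.66-fold lower (limma adjusted p = 0.0112).

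Spon1, spondin 1, a secreted matrix protein first known from the nervous system, was the only matrix gene called higher. Its level was 9.20, 9.33, 9.32, 9.27 and 8.98 with 16α-LE2 and 8.78, 8.86, 8.62, 8.50 and 8.56 with placebo, with no overlap and with treated replicate 34 nearest to placebo. The difference was 0.56 ± 0.11 (SE; limma adjusted p = 0.031). Its 3 other probe sets differed by 0.28, 0.15 and 0.02. The call was lost after median centring (limma adjusted p = 0.0794) and with the replicate number as a block (limma adjusted p = 0.112). It was also lost without any 1 of 8 of the 10 arrays compared, treated replicate 34 and placebo replicate 32 being the exceptions. Of the 25 tested members of the matricellular list, Sparc, Fstl1 and Smoc2 fell, Spon1 rose and 21 were not called, with a median difference of −0.07. Postn, periostin, which marks activated fibroblasts, had a difference of −0.87 without passing (limma adjusted p = 0.0727), with treated replicate 34 at 9.43 inside the placebo range of 9.29 to 10.49. Sparcl1, the closest relative of Sparc, differed by −0.07, Fn1 (fibronectin) by −0.21 and Ccn2 (connective tissue growth factor) by 0.18, and none of these was called.

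**Figure D2:**
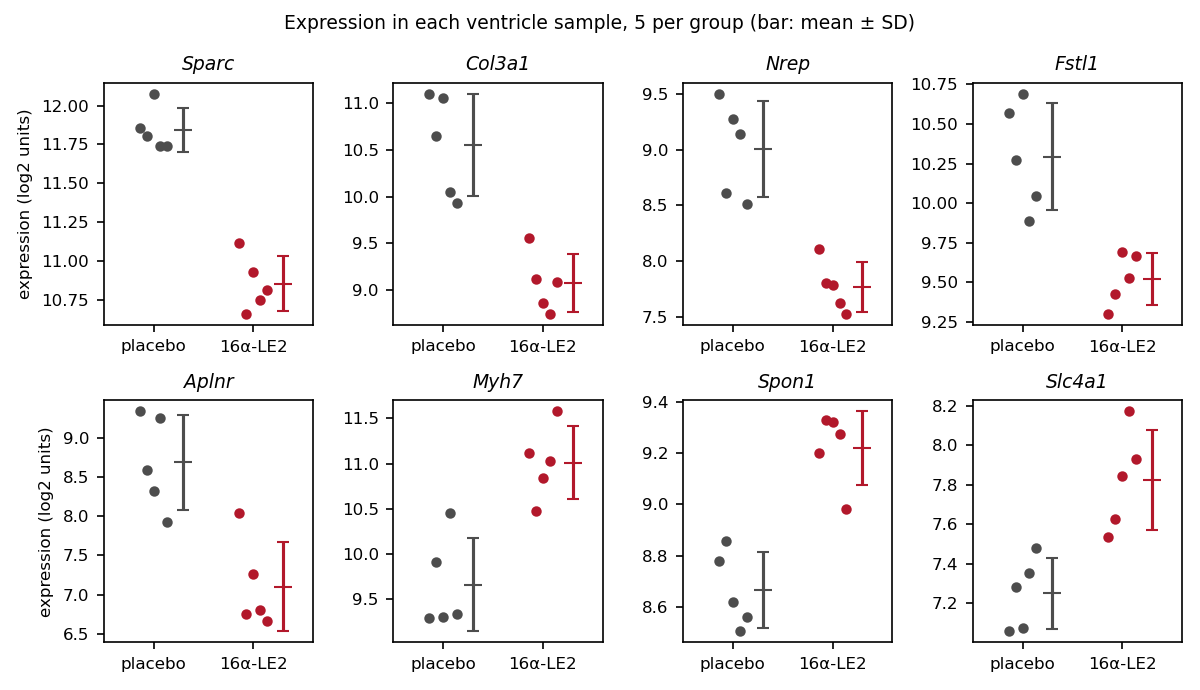
Levels of 8 called genes in each of the 5 placebo (grey) and 5 16α-LE2 (red) ventricle samples, in log2 units on axes that do not start at 0; bars are the mean ± SD of each group. Sparc, Col3a1, Nrep and Fstl1 are lower and Myh7, Spon1 and Slc4a1 higher in every treated sample, and Aplnr overlaps through treated replicate 29 at 8.04 and placebo replicate 36 at 7.93.

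Among fibrillar collagens, Col3a1 and Col5a2 fell and 5 other tested members were not called. Col3a1, which encodes type III collagen, the second main collagen of the heart wall, was at 9.55, 9.12, 8.86, 8.75 and 9.09 with 16α-LE2 and at 11.09, 10.65, 11.05, 10.05 and 9.93 with placebo. The groups were apart, and placebo replicates 34 and 36 lay nearest to the treated samples. Col3a1 was 2.79-fold lower (limma adjusted p = 0.0011), and its second probe set differed by −0.85. Col5a2, a type V collagen chain that joins type I and III fibrils, was at 8.29, 8.06, 7.98, 8.02 and 8.23 against 8.98, 8.85, 9.01, 8.56 and 8.43. Its groups did not overlap and its difference was −0.65 ± 0.12 (SE; limma adjusted p = 0.0147), with −0.27 in a second probe set.

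The type I collagen genes were not called. Col1a2 had a difference of −0.60 (limma adjusted p = 0.134), from 9.40 to 9.92 in placebo samples to 8.84 to 9.56 in treated ones, which overlap. Col1a1 had a difference of −0.11 (limma adjusted p = 0.754) at a level of 7.13 ± 0.12 with 16α-LE2, close to the filter. The list as a whole had 1 positive and 6 negative members and a median of −0.12.

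Of 9 other interstitial collagens, Col8a1 and Col14a1 were called lower. Col14a1, a fibril-associated collagen, was at 7.04, 7.01, 6.94, 6.88 and 6.86 with 16α-LE2 and at 7.54, 7.37, 7.81, 7.19 and 7.69 with placebo. The treated samples were tightly grouped just above the filter and the placebo samples all lay higher. Col14a1 was 1.49-fold lower (limma adjusted p = 0.0175). Col8a1, a short-chain collagen of vessel walls and remodelling hearts, was at 7.90, 8.06, 8.40, 7.82 and 8.14 against 9.08, 8.65, 9.16, 8.44 and 8.53, with only a narrow gap between treated replicate 32 and placebo replicate 34. It was 1.63-fold lower (limma adjusted p = 0.0323). The type VI chains Col6a1 and Col6a3 differed by −0.31 and −0.30 and were not called.

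For both Col14a1 and Col8a1, as for Col5a2, the mean over all probe sets of the gene ended the call, and their other probe sets read lower on the array and differed less. Col14a1's were −0.22 and 0.05, and Col8a1's were −0.29 and 0.01.

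In the basement membrane, the sheet that surrounds cardiomyocytes and capillaries, Nid1 (nidogen 1, which links laminin to type IV collagen) fell by 0.53 log2 units (limma adjusted p = 0.0445). Its treated samples ran from 9.91 to 10.32 and its placebo samples from 10.31 to 10.85, touching only at replicates labelled 34 in both groups. It was the least secure call, lost in 20 of the 33 alternative settings. Of 15 tested members, 11 were negative and the median was −0.16. Col4a1, the main type IV collagen chain, differed by −0.61 and Nid2 by −0.23, neither of them called (limma adjusted p = 0.173 and 0.168).

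The small leucine-rich proteoglycans, which coat collagen fibrils, had no called member of 8 tested, with 7 negative and a median of −0.19. Of the 8, 3 had an unadjusted p under 0.05 (37.5%, against 9.01% of all genes). Aspn (asporin) was at 8.45, 8.88, 9.21, 9.22 and 9.08 with 16α-LE2 and at 10.05, 9.68, 9.93, 9.28 and 9.52 with placebo, apart by a narrow gap (difference −0.72, limma adjusted p = 0.129). Lum (lumican) differed by −0.65 (limma adjusted p = 0.156), with treated samples from 10.13 to 10.72 and placebo samples from 10.53 to 11.76. Dcn (decorin), the most studied member in heart, differed by −0.16.

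Genes that process and remodel collagen followed. Ppic, a cyclophilin of the secretory pathway, was at 9.37, 9.24, 9.40, 9.33 and 9.31 with 16α-LE2 and at 10.31, 10.05, 10.47, 9.71 and 9.68 with placebo. Treated samples lay close together, placebo samples spread widely and the groups did not overlap. Ppic was 1.64-fold lower (limma adjusted p = 0.0219). It was the only call among 19 tested genes of collagen folding and crosslinking, of which 15 were negative, with a median of −0.10. Serpinh1, the collagen chaperone HSP47, differed by −0.47 (limma adjusted p = 0.279), Pcolce2, an enhancer of procollagen cleavage, by −0.46 (limma adjusted p = 0.149) and the crosslinking enzyme Lox by 0.07.

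Of 19 matrix proteases and inhibitors, 3 were called lower, against 0.199% of all genes, and 8 had an unadjusted p under 0.05 (42.1%, against 9.01%). Mmp2, gelatinase A, was at 8.88, 8.87, 8.78, 8.67 and 9.01 with 16α-LE2 and at 9.60, 9.60, 9.65, 9.20 and 9.39 with placebo. No treated sample reached the lowest placebo sample, replicate 34, and Mmp2 was 1.56-fold lower (limma adjusted p = 0.0175), with −0.63 in its second probe set. Itih5, an inter-alpha-trypsin inhibitor heavy chain that binds hyaluronan, was at 8.03, 7.96, 7.78, 7.68 and 7.86 against 8.71, 8.58, 9.11, 8.40 and 8.19. The groups did not overlap, placebo replicate 33 stood highest, and the fall was 1.67-fold (limma adjusted p = 0.0147).

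Adamts9, a secreted metalloprotease that cleaves proteoglycans, was at 7.70, 7.74, 7.68, 7.92 and 7.64 against 8.27, 8.32, 8.38, 8.37 and 8.04, with no overlap. It was 1.45-fold lower (limma adjusted p = 0.0143), while 2 weaker probe sets differed by −0.03 and −0.22. With the mean of its probe sets the difference was −0.26 and the call was lost (limma adjusted p = 0.289). The sheddases Adam10 and Adam17 differed by −0.39 and −0.35 without being called, although their groups did not overlap. The inhibitors Timp1, Timp2, Timp3 and Timp4 differed by 0.01, −0.28, −0.13 and −0.07, and none was called.

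**Figure D3:**
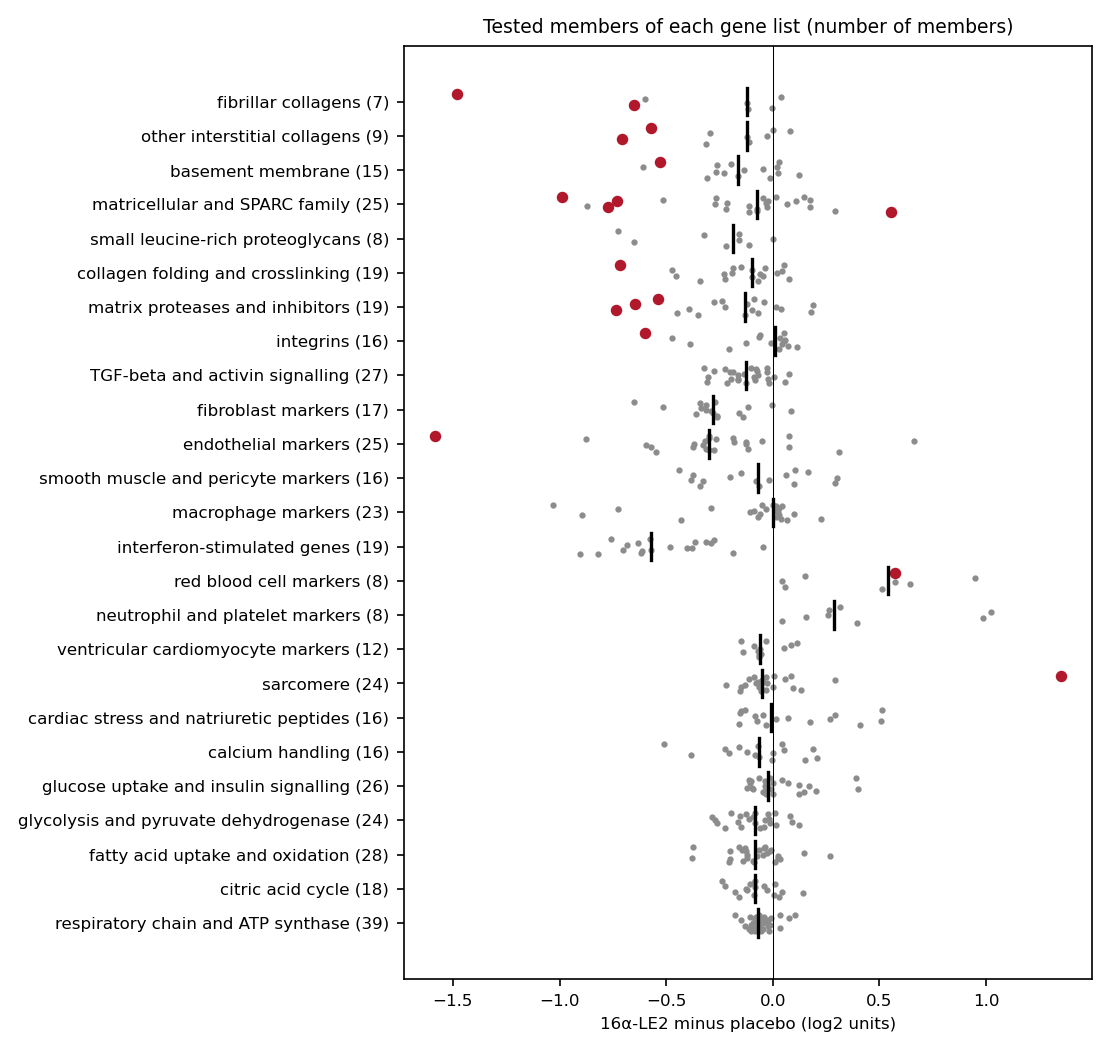
Each point is a tested member of the gene list named on the left, placed by its 16α-LE2 minus placebo difference in log2 units; red points are called genes, black bars are list medians, the vertical position of points within a row is arbitrary and the number of members is in brackets. Red points lie left of 0 in the matrix lists apart from Spon1, interferon-stimulated genes lie left of 0 without a call, and the energy metabolism lists hold no red point.

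Integrins are the receptors that hold cells to this matrix. Itga6, a laminin-binding α chain, was at 8.77, 8.46, 8.67, 8.89 and 8.64 with 16α-LE2 and at 9.36, 9.09, 9.60, 9.40 and 8.99 with placebo. The highest treated sample, replicate 33, stayed just below the lowest placebo sample, replicate 36, and Itga6 was 1.52-fold lower (limma adjusted p = 0.0242). Itga1, a collagen-binding chain, did not overlap between groups either, but missed the threshold (difference −0.39, limma adjusted p = 0.0545). Itgb1, the β chain they share, differed by −0.47 (limma adjusted p = 0.233). In all, 8 of 16 tested integrins were positive and 8 negative, with a median of 0.01.

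The TGF-β pathway, the main known inducer of collagen in fibroblasts, had no member of 27 called by limma, against 0.223% of all genes. An unadjusted p under 0.05 was reached by 5 members (18.5%, against 9.01% of all genes), and 24 were negative (88.9%, against 59.7%) and 3 positive, with a median of −0.12. The ligands Tgfb1, Tgfb2 and Tgfb3 differed by 0.01, −0.09 and −0.10, the receptors Tgfbr1 and Tgfbr2 by −0.28 and −0.13, and the widest member was the BMP receptor Bmpr1a at −0.32 (limma adjusted p = 0.415). In the insulin-like growth factor axis, 0 of 12 were called. Igf1 lay lower in all 5 treated samples (8.00 to 8.29 against 8.30 to 9.12) without passing (difference −0.49, limma adjusted p = 0.15). Igfbp7 differed by −0.53 (limma adjusted p = 0.134).

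Several matrix genes are expressed mainly by fibroblasts, whose markers are therefore given beside them. Of 17 markers none was called by limma, against 0.223% of all genes. The differences of 16 were negative (94.1%, against 59.7% of all genes), 11 had an unadjusted p under 0.05 (64.7%, against 9.01%), and the median was −0.28 against −0.03. The mean of the list, centred over the 10 arrays, was −0.16 to −0.05 in treated samples and −0.17 to 0.30 in placebo samples, where replicate 34 was the exception at −0.17 and the other 4 lay at 0.10 or above. Pdgfra and Ddr2, receptors that mark fibroblasts, differed by −0.31 and −0.28, and Tcf21, a fibroblast transcription factor, by 0.00. Lum had the widest fall of the list, at −0.65, and Mfap5 differed by −0.52. Of the called matrix genes that fell, Col3a1, Sparc, Fstl1, Itih5, Smoc2, Ppic and Col8a1 fell by more than Lum. Col5a2, Mmp2, Col14a1, Adamts9 and Nid1 did not. Lum is itself one of the matrix genes above, as are the markers Dcn and Col1a1. The lists thus overlap, and Lum is not a marker independent of the matrix genes. In ventricle RNA, fewer fibroblasts and less RNA per fibroblast cannot be told apart, and the part of these markers in the matrix result was not tested.

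Of the endothelial markers 1 was called. Aplnr, the apelin receptor of endothelial cells, was at 8.04, 6.75, 7.26, 6.81 and 6.66 with 16α-LE2 and at 9.34, 8.59, 8.33, 9.25 and 7.93 with placebo. It had the widest difference of any called gene, −1.58 ± 0.30 (SE; limma adjusted p = 0.0219, 2.997-fold), and also wide spread: treated replicate 29 lay above placebo replicate 36, while the other 4 treated samples lay below every placebo sample. Its second probe set differed by −0.41, and with the mean of both the call was lost. Apln, its ligand, differed by −0.18 and was not called.

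Of 25 endothelial markers, 24 were not called, 21 were negative (84.0%, against 59.7% of all genes), 17 had an unadjusted p under 0.05 (68.0%, against 9.01%), and the median was −0.30 against −0.03. The list mean was −0.27 to 0.03 in treated samples and 0.06 to 0.22 in placebo samples, so the groups did not overlap. Tek, the angiopoietin receptor, was at 9.51, 9.45, 9.72, 9.63 and 9.38 against 10.33, 10.03, 10.13, 10.20 and 9.85, lower in every treated sample (difference −0.57, limma adjusted p = 0.0788). The junction protein Cldn5 differed by −0.88, and the pan-endothelial markers Pecam1 and Cdh5 by −0.26 and −0.32. Vwf, von Willebrand factor, went the other way: 9.82, 9.43, 9.77, 9.46 and 9.31 with 16α-LE2 and 8.84, 9.22, 8.75, 8.73 and 8.94 with placebo. All treated samples lay above all placebo samples, yet the difference of 0.66 was not called (limma adjusted p = 0.0852). Flt1, a VEGF receptor, differed by 0.31 and Kdr, the other, by −0.13. After quantile normalization the median of the list was −0.18 in place of −0.30. As for fibroblasts, the number of cells and the RNA per cell cannot be told apart.

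Of 16 smooth muscle and pericyte markers none was called, against 0.223% of all genes, 10 were negative, 6 were positive and the median was −0.07. An unadjusted p under 0.05 was reached by 5 (31.2%, against 9.01%). Members ran from −0.44 to 0.30. The pericyte genes Higd1b, Kcnj8, Pdgfrb and Rgs5 differed by −0.44, −0.38, −0.34 and −0.33, and the smooth muscle genes Acta2 and Myh11 by −0.38 and 0.30. These are examples and do not stand for the pericyte or smooth muscle members as a whole. Ventricular cardiomyocyte markers, which check the tissue label, were the most abundant and nearly even: of 12, 9 were negative, the median was −0.06, and Myl2, Tnni3 and Ryr2 differed by −0.07, −0.03 and 0.05.

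**Figure D4:**
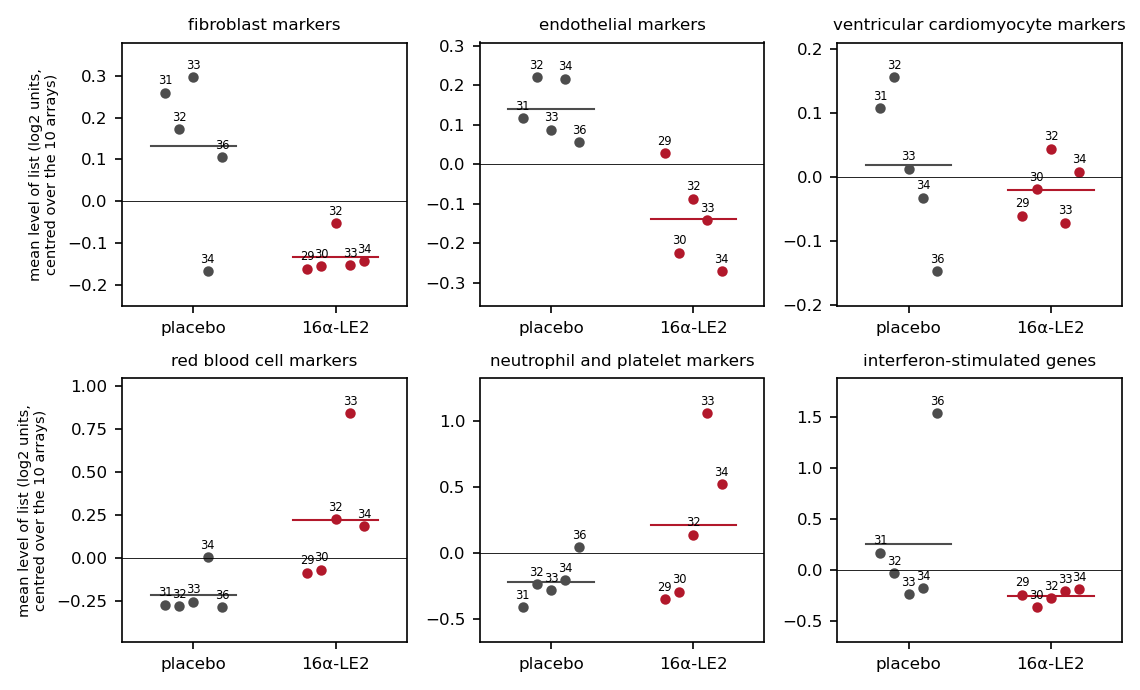
Mean level of 6 marker lists in each placebo (grey) and 16α-LE2 (red) sample, in log2 units after centring each gene over the 10 arrays; numbers are replicates and horizontal lines are group means. Endothelial markers do not overlap, fibroblast markers do through placebo replicate 34 at −0.17, red blood cell and neutrophil markers are highest in treated replicate 33, and placebo replicate 36 stands apart in interferon-stimulated genes at 1.53.

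In the cardiomyocyte's contractile apparatus, 1 of 24 tested sarcomere genes was called, against 0.223% of all genes. It was also the only one with an unadjusted p under 0.05 (4.17%, against 9.01%). Myh7 encodes the β, or slow, myosin heavy chain, which predominates in the fetal mouse ventricle and is low in the adult. Its level was 11.12, 10.47, 10.84, 11.03 and 11.58 with 16α-LE2 and 9.29, 9.91, 9.31, 10.45 and 9.34 with placebo. Every treated sample lay above every placebo sample, although treated replicate 30 and placebo replicate 34 were nearly level. Myh7 was 2.55-fold higher, a difference of 1.35 ± 0.22 (SE; limma adjusted p = 0.00733), measured by 1 probe set.

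The other 23 of 24 tested sarcomere genes were not called. Myh6, the α chain that dominates in adult mice, had 14.13 ± 0.21 (SD) against 14.05 ± 0.20 and differed by 0.08 with a 95% confidence interval of −0.14 to 0.31 (limma adjusted p = 0.895). Actc1, cardiac actin, differed by −0.15, Acta1, the skeletal actin that often moves with Myh7 in stressed hearts, by −0.13, and Des (desmin) by 0.29. The sarcomere list had 8 positive and 16 negative members and a median of −0.05.

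Natriuretic peptides, hormones that the heart releases when stretched, had no called member. Nppb was at 12.87, 12.99, 13.28, 12.91 and 13.19 with 16α-LE2 and 12.90, 12.63, 12.35, 12.38 and 12.42 with placebo. Treated samples 30, 32, 33 and 34 lay above all placebo samples, and replicate 29 lay below placebo replicate 31 (difference 0.51, limma adjusted p = 0.298). Nppa differed by 0.41 (limma adjusted p = 0.532), with overlapping ranges. Among 16 genes of cardiac stress the median was −0.01 and none was called. In calcium handling, Asph, which encodes junctin among other products, was lower in every treated sample (difference −0.51, limma adjusted p = 0.069) and Casq2, the calcium store protein, differed by −0.38 (limma adjusted p = 0.168). The calcium pump Atp2a2 and its brake Pln both differed by −0.07, and the release channel Ryr2 by 0.05.

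Glucose uptake was the theme of the study, and none of 26 tested genes of glucose uptake and insulin signalling was called by limma, against 0.223% of all genes. An unadjusted p under 0.05 was reached by 2 (7.69%, against 9.01% of all genes), and 11 were positive and 15 negative (57.7%, against 59.7%), with a median of −0.02. Slc2a4 encodes GLUT4, the insulin-responsive transporter. It was at 10.87, 10.93, 10.92, 10.87 and 10.88 with 16α-LE2 and at 10.83, 10.89, 10.95, 11.11 and 10.86 with placebo. The treated samples lay inside the placebo range, and the difference of −0.03 had a 95% confidence interval of −0.24 to 0.19 (limma adjusted p = 0.973); its sign turned to 0.08 after quantile normalization. A p that misses the threshold does not show equal levels, and the interval gives the sizes of change that remain possible.

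Slc2a1 encodes GLUT1, the basal transporter. It was at 8.86, 8.75, 8.76, 8.85 and 9.05 with 16α-LE2 and at 8.43, 8.62, 8.42, 8.31 and 8.52 with placebo. All treated samples were above all placebo samples, and 2 further probe sets differed by 0.39 and 0.26, but the difference of 0.39 ± 0.10 (SE) was not called over all genes (limma adjusted p = 0.118). After quantile normalization it was 0.46 and passed (limma adjusted p = 0.0462). It passed in 5 of the 33 alternative settings and not in the other 28, where the limma adjusted p reached 0.338. Irs2, an insulin receptor substrate, differed by 0.40 (limma adjusted p = 0.175), with placebo replicate 33 at 7.70 inside the treated range. Irs1, Insr and Hk2 differed by −0.10, 0.12 and −0.01.

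Across 6 lists of energy metabolism, 149 genes were tested with limma and none was called, against 0.223% of all genes, while 5 had an unadjusted p under 0.05. Their differences ran from −0.38 to 0.40, with 37 positive, 112 negative and a median of −0.07. Pdk4, the kinase that turns off pyruvate dehydrogenase, differed by −0.27 (limma adjusted p = 0.751), with samples from 13.23 to 13.76 and 13.38 to 13.98. In glycolysis Pkm differed by −0.26 and Pgam2 by −0.20, in fatty acid handling Ucp3 by −0.38 and Plin5 by −0.37, in the citric acid cycle Sdhc by −0.24, and of 39 respiratory chain and ATP synthase genes the widest was Cox7c at −0.17.

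Fabp5, a fatty acid binding protein of endothelium and adipocytes outside these lists, did fall. It was at 10.48, 10.38, 10.80, 10.63 and 10.52 with 16α-LE2 and at 11.51, 11.35, 11.06, 11.02 and 11.04 with placebo. The groups were well apart and its 2 probe sets differed alike, by −0.63 and −0.62 (1.55-fold, limma adjusted p = 0.0256). The related Fabp4 differed by −0.30 and the cardiomyocyte form Fabp3 by −0.14, neither called. Pparg, the adipocyte nuclear receptor, was lower in all 5 treated samples without passing (difference −0.31, limma adjusted p = 0.142).

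Nrep, which encodes P311, a small intracellular protein linked to regeneration and to TGF-β translation, fell 2.37-fold. Its level was 8.11, 7.80, 7.79, 7.62 and 7.52 with 16α-LE2 and 9.51, 8.61, 9.28, 9.14 and 8.52 with placebo. There was a clear gap between the groups, with placebo samples falling into a higher trio (31, 33 and 34) and a lower pair (32 and 36). The difference was −1.24 ± 0.18 (SE; limma adjusted p = 0.00209), and −0.87 in a second probe set.

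The remaining called genes act in membranes, signalling and secretion. Marcks, a substrate of protein kinase C at the cell membrane, was at 8.998, 8.57, 8.68, 8.31 and 8.14 with 16α-LE2 and at 9.87, 9.31, 9.52, 8.93 and 9.30 with placebo. Treated replicate 29 crossed placebo replicate 34, and 5 of 6 further probe sets shared the sign of the difference, −0.85 (limma adjusted p = 0.0323). The probe set used for Marcks, like those for Nrep, Tnfaip2 and Colec11, is of a kind whose probes may match transcripts of more than 1 gene. Fam43a, a gene of little known function, ran from 7.41 to 7.71 in treated and from 7.97 to 8.23 in placebo samples, and was 1.37-fold lower (limma adjusted p = 0.0103).

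Enpep, aminopeptidase A, which cleaves angiotensin II, ran from 7.78 to 8.00 against 8.06 to 8.76, 1.45-fold lower (limma adjusted p = 0.0254). Colec11, a collectin of innate immunity, was 1.55-fold lower (limma adjusted p = 0.0256) with ranges of 9.27 to 9.69 and 9.80 to 10.34. Kdelr3, a receptor that returns proteins to the endoplasmic reticulum, was 1.37-fold lower (limma adjusted p = 0.031). The treated samples of Kdelr3 lay close together, from 7.31 to 7.41, while placebo samples ran from 7.57 to 8.17.

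P2ry14, a receptor for UDP-sugars, was 1.33-fold lower (limma adjusted p = 0.0364), Tnfaip2, a TNF-induced gene, 1.43-fold (limma adjusted p = 0.0305) and Tspan13, a tetraspanin, 1.49-fold (limma adjusted p = 0.0428). Tnfaip2 barely separated the groups, with treated replicate 29 and placebo replicate 32 both at 8.56. These 3 calls were among the least secure, P2ry14 being lost in 13 of 32 alternative settings in which it was tested, Tnfaip2 in 13 of 33 and Tspan13 in 16 of 33. Just outside the threshold stood Cenpa, the centromeric histone, at −0.63 (limma adjusted p = 0.0503), with no overlap between groups. Tspan6, Cmtm6, Tmcc3 and Septin4 also had every treated sample below every placebo sample without being called (limma adjusted p = 0.0624, 0.066, 0.066 and 0.0668).

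Slc4a1, the band 3 anion exchanger of red blood cells, rose. It was at 7.53, 7.63, 7.85, 8.17 and 7.93 with 16α-LE2 and at 7.06, 7.28, 7.08, 7.35 and 7.48 with placebo. The groups did not overlap and the difference was 0.57 ± 0.11 (SE; limma adjusted p = 0.0256), with 0.80 and 0.01 in its other probe sets. Of the red blood cell markers, 8 of 8 were positive, with a median of 0.54, and their mean was −0.09 to 0.84 in treated samples and −0.29 to 0.00 in placebo samples. Alas2, the heme synthesis enzyme of red cells, differed by 0.95 (limma adjusted p = 0.173) and was highest in treated replicate 33, at 11.46, and Hbb-b2, a globin, by 0.57. Without treated replicate 33 the median of the list was 0.29, and the Slc4a1 difference was 0.49 and no longer passed (limma adjusted p = 0.0955). The part of red blood cell RNA in the Slc4a1 result was not tested further.

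Neutrophil and platelet markers were also positive in 8 of 8, with a median of 0.29 and no call. S100a8 and S100a9, abundant neutrophil proteins, differed by 0.99 and 1.02 (limma adjusted p = 0.415 and 0.415). S100a9 was at 9.89 and 10.02 in its highest treated samples, while the other 8 samples lay between 7.11 and 8.49. The mean of the list was highest in treated replicate 33, at 1.05, followed by replicate 34, at 0.52. Without replicate 33 the S100a8 difference was 0.67. Tent5c, which was higher in every treated sample (0.94, limma adjusted p = 0.066), was likewise highest in replicate 33, at 9.33.

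Interferon-stimulated genes were negative in 19 of 19 tested members, with a median of −0.57 and no call. Placebo replicate 36 stood apart: its list mean was 1.53 log2 units above the average of the 10 arrays, against −0.23 to 0.17 in the other 4 placebo samples and −0.36 to −0.18 in treated samples. Igtp, an interferon-induced GTPase, was at 8.72, 8.52, 8.46, 8.52 and 12.56 with placebo and 8.62, 8.33, 8.18, 8.60 and 8.53 with 16α-LE2. Replicate 36 alone stood out, and the other 4 placebo samples lay at or near the treated range. Without it the median of the list was −0.18 and Igtp differed by −0.10. The same sample was highest in the antigen presentation genes H2-Aa, H2-Ab1 and H2-Eb1, which differed by −1.03, −0.99 and −0.89 (limma adjusted p = 0.173, 0.266 and 0.349). Cxcl9, an interferon-induced chemokine, was lower in every treated sample (−0.96, limma adjusted p = 0.0668), and without placebo replicate 36 its difference was −0.68 and passed (limma adjusted p = 0.0495). With that sample left out, 37 genes were called in place of 27.

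The list of 23 macrophage markers, which includes H2-Aa and H2-Eb1, had a median of 0.00, with 12 positive and 11 negative, and Csf1r, Cd68 and Adgre1 differed by 0.03, −0.07 and 0.02. Lymphocyte markers were mostly under the filter, with 3 of 12 tested, and Cd3e, Cd4 and Cd8a differed by 0.01, 0.04 and 0.04. Atrial and conduction markers had a median of −0.01 but varied from array to array in both groups, from −0.77 to 0.47 in treated and −0.31 to 0.33 in placebo samples.

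Other systems showed no call. The 16 genes of the vasoactive and angiotensin list had a median of −0.03, and its widest member was Ptgds, prostaglandin D synthase, higher in all 5 treated samples (0.48, limma adjusted p = 0.149). The 17 clock genes had a median of 0.00, with Arntl at −0.42 and Clock at −0.34. The 19 immediate early genes had a median of 0.02, and Klf2, an endothelial factor induced by flow, was lower in every treated sample (−0.48, limma adjusted p = 0.207). The 20 heat shock chaperones had a median of −0.12, with Hspb8 lower in every treated sample (−0.37, limma adjusted p = 0.233), and the 22 chaperones of the endoplasmic reticulum had one of −0.09. Among 17 steroid receptors and estrogen targets the median was −0.01 and Nr3c1, the glucocorticoid receptor, was lower in every treated sample (−0.44, limma adjusted p = 0.207). Neat1, a nuclear noncoding RNA, had the widest difference of any gene not called (1.19, limma adjusted p = 0.156), with placebo replicate 34, at 12.01, inside the treated range of 11.50 to 12.64; its second probe set differed by 0.06.

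Of the 6111 genes below the filter, 3 were called when no filter was applied. They lie outside the rule for naming genes and were chosen after their values were seen. Cyp1a1, a cytochrome P450 induced through the aryl hydrocarbon receptor that metabolizes estrogens, was at 6.64, 6.98, 6.75, 6.93 and 6.96 with 16α-LE2 and at 6.07, 6.12, 6.11, 6.13 and 6.23 with placebo. Every treated sample was higher, by 0.72 ± 0.08 log2 units on average (SE; limma adjusted p = 4.3e-05 over 18193 genes), the smallest p in that fit. Cnmd, chondromodulin, was higher by 0.36 (limma adjusted p = 0.0151) and Chil3, a chitinase-like protein of myeloid cells, by 0.55 (limma adjusted p = 0.0298). Both had no overlap between groups. Levels this low are near the bottom of the array's range of values, and no background reading was used.

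The called genes were set beside the other 2 groups of ovariectomized mice. These comparisons share the 5 treated samples. Between 16α-LE2 and 17β-estradiol, 2 genes were called (0.0166% of tested genes), Nrep (−1.08, limma adjusted p = 0.027) and Col14a1 (−0.64, limma adjusted p = 0.027), both lower with 16α-LE2. Sparc, Col3a1 and Myh7 lay just outside the threshold, at −0.61, −1.12 and 1.17 (limma adjusted p = 0.0507, 0.0502 and 0.0507). An unadjusted p under 0.05 was reached by 627 genes. The 2 compounds were given for the same 4 weeks but at unknown doses, so their potency was not compared. The count of 2 fell to 0 without 16α-LE2 replicate 30, 32, 33 or 34 or estradiol replicate 30, 34 or 35, and to 1 without estradiol replicate 29. It was 4 without beta-titled replicate 31 or 35 or placebo replicate 34, 6 without placebo replicate 36, 8 without placebo replicate 33 and 11 without 16α-LE2 replicate 29. Without estradiol replicate 33, the array of lowest rank correlations, it stayed at 2.

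Between 16α-LE2 and the beta-titled group, 21 genes were called (0.174%), 9 higher and 12 lower with 16α-LE2, and 13 of them were among the 27 called against placebo. Sparc differed by −0.90 (limma adjusted p = 0.00042), Col3a1 by −1.57 (limma adjusted p = 0.00042), Aplnr by −1.69 (limma adjusted p = 0.0156) and Spon1 by 0.74 (limma adjusted p = 0.00359). Myh7 differed by 0.90 and was not called (limma adjusted p = 0.121). Called here but not against placebo were 8 genes, all higher with 16α-LE2: Nppb (0.98, limma adjusted p = 0.0156), Ptgds (0.67, limma adjusted p = 0.0225), the metallothionein Mt2 (0.91, limma adjusted p = 0.0244), Slc2a1 (0.47, limma adjusted p = 0.0469), and Hspa1l, Sra1, Mgst1 and Asb11, whose differences ran from 0.37 to 0.62. Slc2a1 differed by 0.14 from estradiol (limma adjusted p = 0.875). The count of 21 was 7 without 16α-LE2 replicate 30 or 33 or beta-titled replicate 31, 8 to 11 without beta-titled replicate 32 or 33 or 16α-LE2 replicate 32 or 34, and 37 without estradiol replicate 33. Beta-titled replicates 31 and 32 had array SDs of 1.32 and 1.30, against 1.38 to 1.41 with 16α-LE2. Without the 3 arrays of narrowest spread the count was 10, and after quantile normalization 32. Most of the 8 genes had high levels, from 10.52 (Sra1) to 13.06 (Ptgds), but Slc2a1 was at 8.60 and Hspa1l at 7.29. The part of array spread in these 8 rises was not tested.

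**Figure D5:**
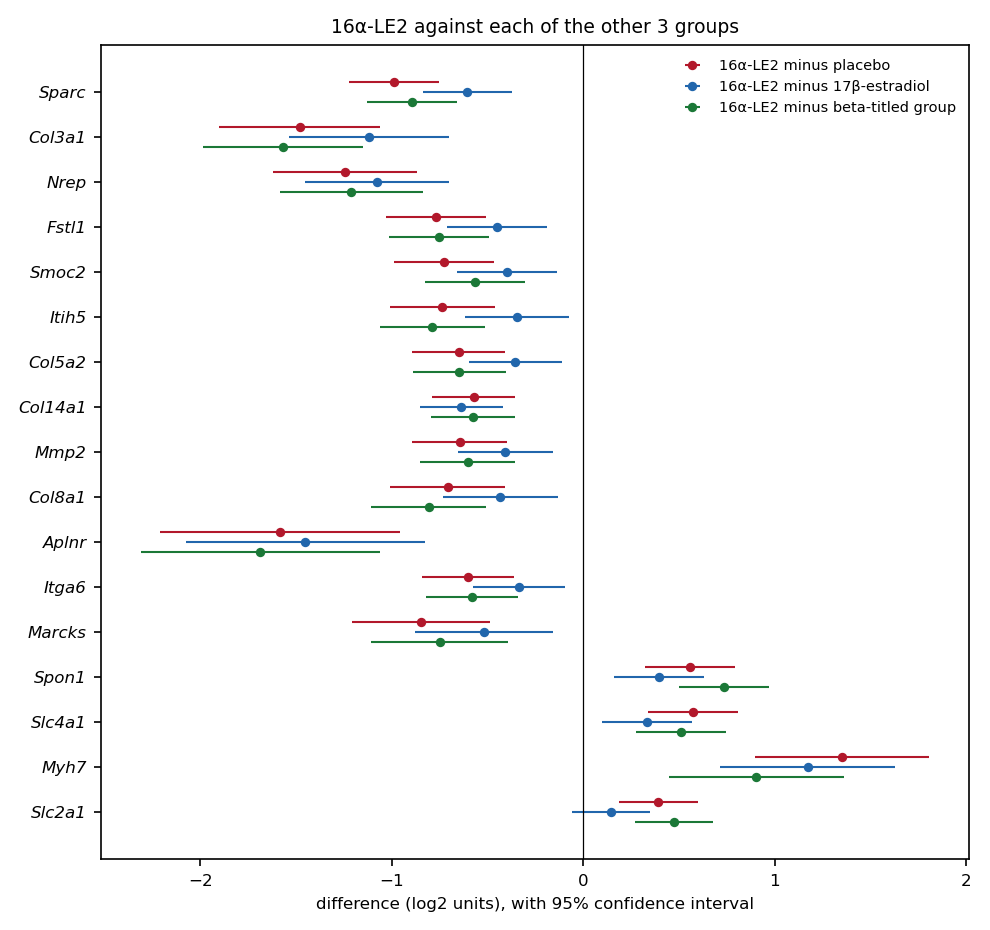
Difference of 16α-LE2 from placebo (red), 17β-estradiol (blue) and the beta-titled group (green) for 17 genes, in log2 units with 95% confidence intervals from the fit of all 20 arrays. The 3 comparisons share the 16α-LE2 samples; Sparc differs by −0.99, −0.61 and −0.90, and Slc2a1 by 0.39, 0.14 and 0.47.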

How the data were processed

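Total RNA of 20 mouse ventricle samples was hybridized to Affymetrix arrays after biotin labelling of 100 ng RNA with the IVT Express kit, per the labels' protocols. The authors deposited a table of log2 values, with 45101 probe sets on each array. That the scale is log2 was read from the range of the values, and the submitters' software and normalization are not stated in the labels. The means of the arrays differed little, so some scaling between arrays was already in the values.

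Genes were named through the platform annotation: 34945 probe sets carried 1 symbol, 932 several and 9160 none, and 64 controls were left out. The reference genes (GRCm38.p6) held the IDs of 34741 of these probe sets. Each of 18193 genes was represented by its probe set of highest mean over all 20 arrays, kept where that mean was above the median of all probe sets (6.93), which left 12082. All 20 arrays entered 1 fit of 4 group means in limma 3.58.1 (R 4.3.3), moderated by eBayes with an intensity trend, with 16 residual degrees of freedom plus 7.13 from the prior, and p-values were adjusted by Benjamini-Hochberg over 12082 genes at a threshold of 0.05. Arrays of the other groups thus bear on each p-value.

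The 129 genes named by rule were all called genes, the 10 of smallest p and the 10 of largest difference not called, in each of 44 gene lists the called members and the 2 of smallest p not called, and Slc2a1, Slc2a4, Pdk4, Esr1, Esr2, Myh6, Myh7, Nppa and Nppb. Of these, 127 were tested. Other list members with values are examples chosen after their values were seen, as are the genes named from the comparisons with estradiol and the beta-titled group. The samples compared, the lists and the tests were chosen with earlier results of these data known. Gene lists were not tested as sets. The fit was tested on simulated data, and 33 alternative settings were run. Removal of the 3 arrays of narrowest spread was added after the data were examined. Figures were drawn with matplotlib 3.10.9.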

Additional observations from a re-analysis of the deposited data

Results flagged for a closer look

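In 10 of 254 groups of 5 samples, over the 127 tested named genes, 1 sample stood apart from the other 4 by Dixon's criterion (a gap to the nearest sample of over 0.71 of the range). Chance flags about 1 in 20 groups. Placebo replicate 36 stood high in 3 genes of interferon response and antigen presentation: Igtp at 12.56 (nearest placebo sample 8.72), H2-Eb1 at 11.75 (nearest 9.89) and Ifit3 at 10.15 (nearest 8.67). Among other placebo samples, the pericyte channel gene Kcnj8 was low in replicate 33, at 9.66 (nearest 10.25), and Col1a1 was high in replicate 32, at 7.54 (nearest 7.22). Among 16α-LE2 samples, replicate 33 was high for Tspan6, at 7.71 (nearest 7.56), and for the neutrophil granule gene Ngp, at 8.25 (nearest 7.80). Replicate 29 was high for Klf2, at 9.18 (nearest 8.80), and low for the potassium channel subunit Kcne1, at 6.94 (nearest 7.08). Replicate 34 was low for Pkm, at 10.42 (nearest 10.85).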

How the results depend on the processing

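The fit reported called 27 genes against placebo. Other settings called 357 with array weights, 71 with placebo and beta-titled samples pooled, 62 at an adjusted p under 0.1, 60 without the 3 arrays of narrowest spread (estradiol replicate 33 and beta-titled replicates 31 and 32) and 17 when a gene's probe sets were averaged. The other settings of this kind gave 23 to 37, the 37 being from the fit of only the 2 groups compared, which shared 16 of the 27, and leaving out 1 array gave 8 to 74. Against estradiol, where 2 were called, the count was 4 with no filter, 4 with a filter at the 75th percentile, 20 with array weights, 0 with the mean of probe sets, 5 with robust eBayes, 6 at an adjusted p under 0.1, 1 without the 3 narrow arrays and 0 to 11 without 1 array. Against the beta-titled group, where 21 were called, it was 32 after quantile normalization, 13 after median centring, 122 with array weights, 46 with only the 2 groups compared, 34 at an adjusted p under 0.1, 10 without the 3 narrow arrays and 7 to 37 without 1 array. The cause of these differences was not tested, except that a looser threshold calls more by construction. For the named genes, 3826 of 4161 values kept their direction and side of the threshold, 176 lost a call, 155 gained one and 4 changed sign: Myh6 (−0.015 with array weights) and Slc2a4 (0.084 after quantile normalization, 0.018 with pooled controls, and −0.053 to 0.016 without 1 array). Of 1407 list medians, 1367 moved by less than the spread between samples.

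With the replicate number as a block, 36 genes were called against placebo, 15 of them among the 27, and 4 against estradiol. Numbers 32, 33 and 34 occur in both groups, and the deviations of these same-numbered samples correlated at r from −0.15 to 0.21 over genes. Over all 17 same-numbered pairs among the 4 groups r ran from −0.35 to 0.51, with 6 over 0.1. Since not every pair was over 0.1, the numbers were not taken as pairs. Correlations of differently numbered samples were not set beside these, so pairing by number was not excluded.

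The number of arrays, and for genes near the filter the low signal, limit what is detectable here. Doses, any pooling of animals and the authors' normalization are not stated in the labels.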
